A study of Mus musculus with 6 samples.

Results

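Family 4 of the cytochrome P450 enzymes (Cyp4) hydroxylates fatty acids, and 9 of its mouse genes are described here: Cyp4a10, Cyp4a12a, Cyp4a12b, Cyp4a14, Cyp4a31, Cyp4a32, Cyp4b1, Cyp4f14 and Cyp4v3. They were taken by gene symbol from the 56691 genes counted in 6 mouse kidney libraries. The genes were chosen by their counts in cisplatin against control kidneys in these same libraries, so that difference is given as a description, and where their calls in the fit over all genes are counted nothing is read from them. A further 11 Cyp4 genes served for comparison.

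The study modelled chronic kidney disease with repeated cisplatin, a DNA-crosslinking chemotherapy drug that injures kidney tubules, and sequenced total RNA of the kidney from 3 cisplatin mice and 3 control mice. All mice were C57BL/6 males, aged 9 weeks at the first injection. The cisplatin group was injected intraperitoneally once a week, with 4 injections of 8 mg/kg as the dose the study chose for its further work, and the control group got saline. Kidneys were taken after week 7, so the data cover male mice at a single late time.

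Cyp4 enzymes sit in the endoplasmic reticulum, take electrons from P450 reductase and put a hydroxyl group on or next to the last carbon of a fatty acid, which starts omega-oxidation towards dicarboxylic acids. In kidney they are best known for turning arachidonic acid into 20-HETE, a lipid that constricts renal vessels and acts on tubular salt transport. Several mouse Cyp4a genes are classic targets of the fatty acid receptor PPAR-alpha, and others differ between the sexes.

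The 6 Cyp4a genes and Cyp4b1 lie together within 349 kb of chromosome 4 (GRCm39, chr4:115156243-115504999), in the order Cyp4a12a, Cyp4a12b, Cyp4a14, Cyp4a10, Cyp4a31, Cyp4a32 and Cyp4b1, with Cyp4a14 and Cyp4b1 on the minus strand. Cyp4f14 lies on chromosome 17 (chr17:33120541-33136561) and Cyp4v3 on chromosome 8 (chr8:45757972-45786330), both on the minus strand. Among the Cyp4a genes, Cyp4a10, Cyp4a31 and Cyp4a32 are near copies of each other, as are Cyp4a12a and Cyp4a12b. This bears on how reads of the Cyp4a genes can be assigned. The stretches below show how alike they are where the protein binds its heme: each is the first 60 bases of the coding exon that holds the codon of the heme-binding cysteine, which is the tgc at bases 5 to 7, and capitals mark bases that differ from Cyp4a10.
Cyp4a10, plus strand, chr4:115389728-115389787: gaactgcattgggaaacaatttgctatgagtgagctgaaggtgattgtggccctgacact
Cyp4a31, plus strand, chr4:115435133-115435192: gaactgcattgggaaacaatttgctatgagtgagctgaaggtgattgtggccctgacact
Cyp4a32, plus strand, chr4:115478631-115478690: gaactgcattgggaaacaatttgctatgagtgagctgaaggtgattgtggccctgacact
Cyp4a12a, plus strand, chr4:115189031-115189090: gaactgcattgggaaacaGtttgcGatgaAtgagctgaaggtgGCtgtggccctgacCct
Cyp4a12b, plus strand, chr4:115295254-115295313: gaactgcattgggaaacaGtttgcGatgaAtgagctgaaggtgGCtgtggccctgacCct
Cyp4a14, minus strand, chr4:115344449-115344508: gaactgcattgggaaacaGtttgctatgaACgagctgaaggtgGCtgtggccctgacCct

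Cyp4a10, Cyp4a31 and Cyp4a32 were identical over these 60 bases, as were Cyp4a12a and Cyp4a12b. Over the whole coding sequence, Cyp4a12a and Cyp4a12b differed at 23 of 1524 aligned bases (98.5% identity), and Cyp4a10 and Cyp4a31 at 52 of 1527 (96.6%). Cyp4a12a and Cyp4a12b were each at 80.2% identity with Cyp4a10. Cyp4a14 stood further off, at 76.1% identity with Cyp4a10. The next stretches are the 60 coding bases in which each close pair differs most, with the differing bases in capitals, since only such bases let a read be assigned to one of the pair.
Cyp4a12a, plus strand, chr4:115183825-115183884: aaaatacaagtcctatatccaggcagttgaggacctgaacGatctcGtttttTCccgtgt
Cyp4a12b, plus strand, chr4:115290078-115290137: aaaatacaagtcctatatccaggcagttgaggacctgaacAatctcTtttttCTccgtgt
Cyp4a10, plus strand, chr4:115375624-115375683: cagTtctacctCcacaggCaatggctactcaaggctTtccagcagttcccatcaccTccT
Cyp4a31, plus strand, chr4:115421019-115421078: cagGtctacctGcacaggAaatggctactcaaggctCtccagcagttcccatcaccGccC

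The counts hold uniquely mapped read pairs only, so a pair from a shared stretch is lost to both copies. Of all 150-base windows of the transcript, 74.4% of those of Cyp4a12a and 74.1% of those of Cyp4a12b were found in no other gene, and every shared window was shared between these 2 genes. The share was 95.3% for Cyp4a10, 95.9% for Cyp4a31, 92.6% for Cyp4a32 and 95.5% for Cyp4v3, and 100% for Cyp4a14, Cyp4b1 and Cyp4f14. The counts of Cyp4a12a and Cyp4a12b therefore miss part of their reads, and their split is less certain than for the other genes.

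The libraries held 21891855 to 25356523 counted pairs in the cisplatin group and 24111688 to 26627554 in the control group, with 96.7 to 97.2% of pairs on the sense strand. Levels are given as CPM, the counts per 1000000 counted pairs, with library sizes adjusted by the trimmed mean of M-values (TMM). The scaling factors were 1.05 to 1.26 in cisplatin libraries and 0.844 to 0.894 in control libraries and did not overlap. Of 15662 genes tested with edgeR, 3841 were higher and 3578 lower in cisplatin kidneys at an adjusted p under 0.05. These counts became 4774 and 2890 with upper-quartile scaling, and 8508 and 1375 when library totals alone were used, with an all-gene median (log2) of 0.48, against 0.05 with TMM. In whole kidney RNA, fewer cells of a type and less RNA per cell cannot be told apart.

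Of the 9 Cyp4 genes, 8 passed the filter on low counts. Of these 8, 4 were called higher (Cyp4a14, Cyp4a10, Cyp4a12b and Cyp4v3), 3 lower (Cyp4a12a, Cyp4b1 and Cyp4f14) and 1, Cyp4a31, neither. Over all genes tested, 47.4% were called, 24.5% higher and 22.8% lower. The groups did not overlap in CPM for 7 of the 8 genes, against 57.8% of all genes tested. Cyp4f14 passed the filter through its control libraries. Since this contrast chose the genes, nothing is read from these counts, and the text below gives the values themselves.

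**Figure D1:**
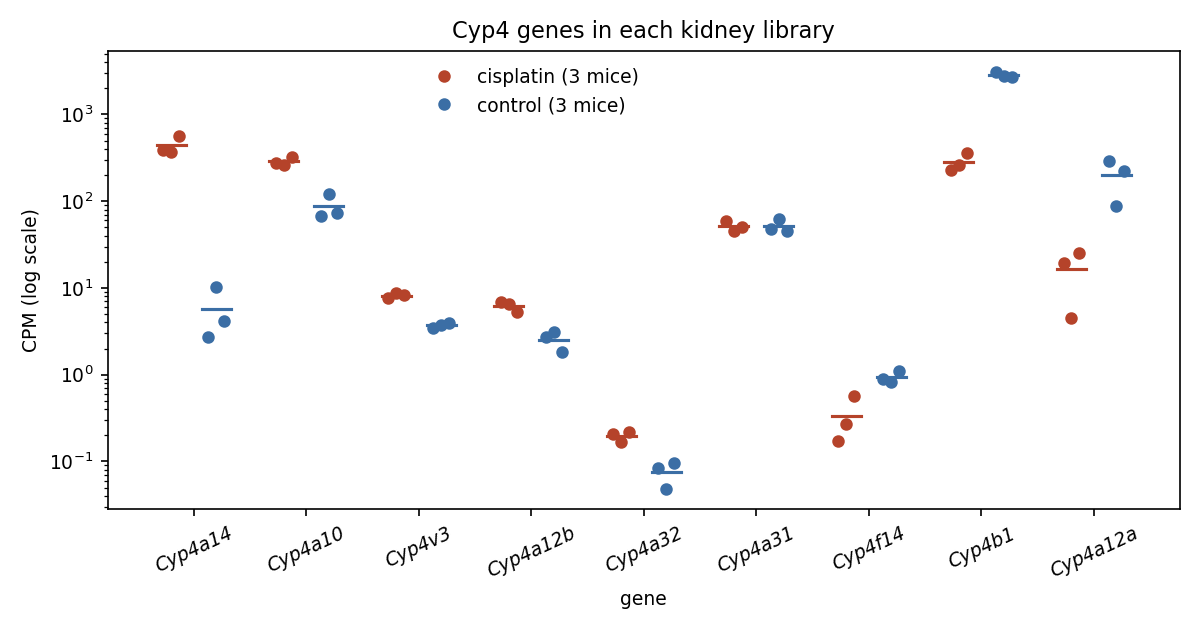
CPM on a log scale of the 9 Cyp4 genes in each library, with cisplatin left and control right for each gene; points are mice and bars the mean of 3. Cyp4a14 moved furthest, with 367 to 563 CPM in cisplatin kidneys and 2.69 to 10.4 CPM in control kidneys, whereas the Cyp4a31 points of the groups lie among each other.

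Cyp4a14, an omega-hydroxylase and PPAR-alpha target, had the widest difference. Its counts were 11420, 10947 and 12917 in the 3 cisplatin libraries, against 64, 213 and 87 in the 3 control libraries. On the CPM scale these were 393, 367 and 563 in cisplatin kidneys and 2.69, 10.4 and 4.18 in control kidneys. Every cisplatin kidney thus lay far above every control kidney, and the control kidneys differed 3.86-fold among themselves, with replicate 2 highest. The ratio of the mean CPM was 76.7, and the log2 fold change was 6.28 (standard error, SE, 0.406), the value ranked 17 from the top among 15662 genes. Without control replicate 2 it was 7.01.

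Cyp4a10, the arachidonic and lauric acid omega-hydroxylase commonly used as a marker of PPAR-alpha activity, was higher by a smaller factor. Its level was 273, 264 and 327 CPM in cisplatin kidneys and 67.9, 120 and 73.6 CPM in control kidneys. The groups did not overlap, and control replicate 2 was again the highest control. The means were 288 ± 34.2 CPM in cisplatin kidneys and 87.2 ± 28.7 CPM in control kidneys (SD, n = 3 each), the log2 fold change being 1.72 (SE 0.195).

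Cyp4a31, whose coding sequence is nearly that of Cyp4a10, had 59.7, 45.8 and 50.9 CPM in cisplatin kidneys and 47.6, 61.8 and 45.1 CPM in control kidneys. The groups overlapped throughout, and the log2 fold change was 0.02 (SE 0.134). Its sign changed with the scaling and with the libraries kept, and with library totals it was 0.45 and called higher, beside an all-gene median of 0.48. The close pair Cyp4a10 and Cyp4a31 therefore showed unlike fold changes in the same libraries. Most windows of both transcripts are unique to them, so most of their pairs could be told apart.

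Cyp4a32, the third near copy, was hardly detected. It had 6, 5 and 5 counts in cisplatin libraries and 2, 1 and 2 counts in control libraries and was not tested. Its ratio per scaled pair was 2.55, with an exact 95% counting interval of 0.892 to 8.89. The last exons of Cyp4a32 overlap Cyp4b1 on the opposite strand by 657 exonic bases. Pairs on the strand opposite to Cyp4a32 numbered 19 in cisplatin and 143 in control libraries, beside 16 and 5 on its own strand. Counts that ignore the strand were 15, 9 and 11 in cisplatin libraries against 43, 55 and 47 in control libraries, the opposite order. EdgeR tested the gene on those counts and called it lower, although most of the control pairs lay on the strand of Cyp4b1.

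Cyp4a12a, an arachidonic acid omega-hydroxylase that makes 20-HETE and is known to be higher in male than in female mouse kidney, was lower in cisplatin kidneys. Its level was 19.4, 4.49 and 25.5 CPM in cisplatin kidneys and 292, 87.6 and 221 CPM in control kidneys. The groups did not overlap, but the spread within each was wide: the highest library exceeded the lowest 5.67-fold among cisplatin kidneys and 3.33-fold among control kidneys, whereas the median of this ratio over the 8523 genes that averaged log2 CPM 3 or more was 1.21 in cisplatin kidneys and 1.10 in control kidneys. Replicate 2 was the lowest in both groups. The mean was 12.2-fold lower in cisplatin kidneys, the log2 fold change being -3.62 (SE 0.557), and leaving out 1 library gave -4.11 to -3.16.

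Cyp4a12b, the near-identical neighbour of Cyp4a12a, differed the other way. It had 198, 195 and 122 counts in cisplatin libraries and 65, 63 and 38 counts in control libraries, or 6.23 ± 0.795 CPM in cisplatin kidneys and 2.54 ± 0.642 CPM in control kidneys (SD, n = 3 each). The groups did not overlap, and the log2 fold change was 1.29 (SE 0.192). Its level did not follow that of Cyp4a12a across the libraries. The library with the least Cyp4a12a, cisplatin replicate 2, had 134 counts of Cyp4a12a and 195 of Cyp4a12b.

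**Figure D2:**
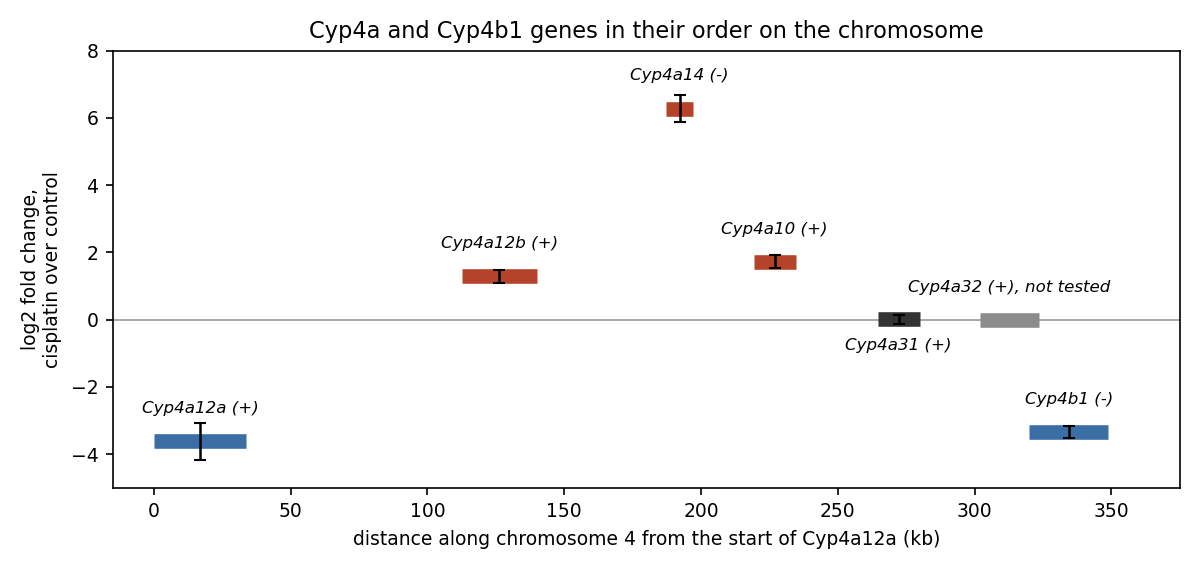
Log2 fold change of cisplatin over control, with its standard error as whiskers, against the place of each gene on chromosome 4 in kb from the start of Cyp4a12a; bars span the genes, signs give the strand and the grey bar at 0 marks Cyp4a32, which was not tested. Cyp4a12b, Cyp4a14 and Cyp4a10, with values above 1, and Cyp4a31 at 0.02 lie between the genes with the most negative values, Cyp4a12a at -3.62 and Cyp4b1 at -3.34.

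Cyp4b1, which hydroxylates shorter fatty acids and activates some xenobiotics, was by far the most abundant Cyp4 transcript of control kidneys. Its counts were 6587, 7799 and 8337 in cisplatin libraries and 74194, 56495 and 56821 in control libraries. The groups were far apart, at 284 ± 71.2 CPM in cisplatin kidneys and 2868 ± 218 CPM in control kidneys (SD, n = 3 each). This was a 10.1-fold lower mean, or -3.34 as log2 fold change (SE 0.180). Of the counted pairs of all 9 genes, scaled as CPM, Cyp4b1 took 25.9% in cisplatin kidneys and 89.1% in control kidneys, and the sum over the 9 genes was 1097 ± 215 CPM in cisplatin kidneys and 3219 ± 275 CPM in control kidneys (SD, n = 3 each).

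Both members outside the chromosome 4 cluster were rare transcripts. Cyp4v3, the mouse counterpart of the human gene CYP4V2 that is mutated in Bietti crystalline dystrophy, had 222, 258 and 188 counts in cisplatin libraries and 83, 76 and 81 counts in control libraries. Its level was 8.16 ± 0.502 CPM in cisplatin kidneys and 3.70 ± 0.203 CPM in control kidneys (SD, n = 3 each), the log2 fold change being 1.14 (SE 0.126). It had the tightest replicates of the 9 genes, within 1.13-fold in cisplatin kidneys and within 1.12-fold in control kidneys. Cyp4f14, an omega-hydroxylase of leukotriene B4, had 5, 8 and 13 counts in cisplatin libraries and 21, 17 and 23 counts in control libraries. These groups did not overlap, the log2 fold change was -1.53 (SE 0.393), and leaving out 1 library gave -2.09 to -1.21.

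The order of the genes by level was compared per kilobase of the canonical transcript (CPM per kb). The whole length was used, although 74.4% of Cyp4a12a and 74.1% of Cyp4a12b windows were unique, against 95.5% for Cyp4v3. The places of Cyp4a12a and Cyp4a12b in the order are therefore less certain. In cisplatin kidneys the top 3 genes were Cyp4a14 at 176 (range 147 to 225), Cyp4b1 at 150 (120 to 192) and Cyp4a10 at 137 (125 to 155) CPM per kb, and their ranges overlapped. Cyp4a31 followed at 20.6 (18.1 to 23.5) CPM per kb, apart from its neighbours in the order. Then came Cyp4a12a at 6.80, Cyp4a12b at 2.60 and Cyp4v3 at 2.14 CPM per kb, whose ranges overlapped in sequence, and last Cyp4a32 at 0.114 and Cyp4f14 at 0.0588 CPM per kb, which overlapped as well.

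In control kidneys Cyp4b1 stood alone at the top with 1515 (1443 to 1648) CPM per kb. Cyp4a12a at 82.7 (36.2 to 120) and Cyp4a10 at 41.4 (32.2 to 57.0) CPM per kb overlapped, and Cyp4a31 lay below them at 20.3 (17.8 to 24.4) CPM per kb. Cyp4a14 at 2.30 (1.08 to 4.15), Cyp4a12b at 1.06 (0.763 to 1.28) and Cyp4v3 at 0.968 (0.914 to 1.02) CPM per kb overlapped in sequence. Cyp4f14 at 0.164 and Cyp4a32 at 0.0439 CPM per kb closed the order and did not overlap. The fifth gene of the control order, Cyp4a14, thus led the cisplatin order.

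The sum of the 6 Cyp4a genes was 753, 688 and 972 CPM in cisplatin kidneys and 413, 283 and 346 CPM in control kidneys. The groups did not overlap and the means differed 2.32-fold, so the Cyp4a sum was higher in cisplatin kidneys whereas the sum that includes Cyp4b1 was lower. The make-up of the Cyp4a counts differed as well. Cyp4a14 held 54.5% ± 3.02 of them in cisplatin kidneys and 1.84% ± 1.60 in control kidneys, and Cyp4a12a held 1.95% ± 1.12 in cisplatin kidneys and 55.2% ± 21.3 in control kidneys (SD, n = 3 each). Without control replicate 2 the mean control share of Cyp4a14 was 0.930%. Of the windows of Cyp4a12a 74.4% were unique, against 95.3% for Cyp4a10 and 100% for Cyp4a14. Lost pairs therefore weigh more on the control sum and on the control share of Cyp4a12a, and the 2.32-fold may be too large.

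Cyp4a10 held 36.3%, 38.4% and 33.6% of the Cyp4a counts in cisplatin libraries and 16.5%, 42.5% and 21.3% in control libraries. Control replicate 2 lay above the cisplatin libraries and the other controls below them, and in it Cyp4a12a held 30.9% of the counts, against 70.7% and 63.9% in control replicates 1 and 3. The share of Cyp4a31 was 5.23 to 7.93% in cisplatin kidneys and 11.5 to 21.8% in control kidneys, while its CPM ranges overlapped.

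**Figure D3:**
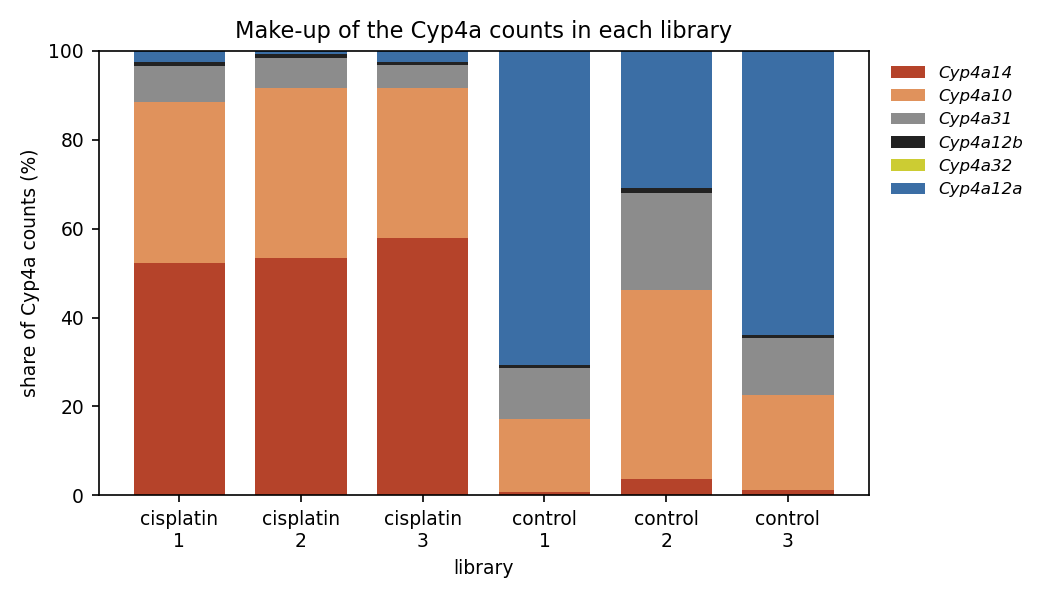
Share of each Cyp4a gene in the summed Cyp4a counts, in percent, for the 3 cisplatin and then the 3 control libraries; Cyp4a32 is under 0.03% in each and cannot be seen. Cyp4a14 fills 52.3 to 57.9% of the cisplatin bars and 0.652 to 3.67% of the control bars, and control replicate 2 has the least Cyp4a12a of the controls.

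Among the 11 other Cyp4 genes, 4 were tested, of which 3 were higher in cisplatin kidneys and none lower by edgeR's adjusted p (1 lower at an unadjusted p under 0.05, and none with DESeq2). Over all genes tested, 24.5% were higher and 22.8% lower. Cyp4f16 differed by 1.45 on the log2 scale (SE 0.167, edgeR adjusted p = 5.0e-05). Cyp4f18, a leukotriene B4 hydroxylase of mouse neutrophils and other myeloid cells, also had 1.45 (SE 0.291, adjusted p = 0.0020 from edgeR), from 114 counts over the cisplatin libraries and 33 over the control libraries. Cyp4f17 had 0.63 (SE 0.169, adjusted p = 0.010 from edgeR). Cyp4f13 had -0.27 (SE 0.105, adjusted p = 0.056 from edgeR) and was called lower in 3 of the alternatives tried. Cyp4f15 (13 counts over the cisplatin libraries and 20 over the control libraries), Cyp4f39 (8 and 6), Cyp4x1 (5 and 2), Cyp4a30b (1 and 0) and Cyp4f40 (1 and 0) were too low to test, and Cyp4a29 and Cyp4f37 had no counts. Of the 7 further annotated genes inside the chromosome 4 cluster that the files count, including pseudogenes, none had more than 5 counts over all libraries.

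Of the genes that surround the Cyp4 step, those that carry its products onward were mostly lower. Of 15 tested genes of omega-oxidation and peroxisomal oxidation of dicarboxylic acids, 13 were lower and 1 higher in cisplatin kidneys, and their median was -0.70 on the log2 scale, against 0.05 over all genes tested. Of all genes tested, 22.8% were lower and 24.5% higher. With library totals in place of TMM, 8 were lower and 2 higher. The fatty aldehyde dehydrogenase Aldh3a2 fell by 1.43 on the log2 scale, the peroxisomal acyl-CoA oxidase Acox3 by 1.82 and the carnitine octanoyltransferase Crot by 2.04 (edgeR adjusted p = 8.0e-07, 1.8e-07 and 6.8e-07). The acyl-CoA synthetase Acsl1 was the riser, with 0.39 (adjusted p = 0.0034 from edgeR).

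PPAR-alpha and the genes listed as its targets did not move as one. Of 26 tested, 11 were lower and 4 higher in cisplatin kidneys at a log2 median of -0.22, and with library totals the split turned to 7 lower and 10 higher. The shares over all genes tested were 22.8% lower and 24.5% higher. Fabp1, called higher, passed the filter through its cisplatin libraries, having 5, 3 and 4 counts in the control libraries. With 10 counts required in every library 24 were tested, 11 lower and 4 higher. Fabp1 was not among these 24, so the 4 higher genes were not all the same as before. The acyl-CoA thioesterases Acot1 and Acot3 rose by 0.69 and 0.96 on the log2 scale (edgeR adjusted p = 2.6e-04 and 3.7e-04). The beta-oxidation genes Acadm and Cpt2 fell by 1.69 and 0.90 on the log2 scale (edgeR adjusted p = 6.6e-06 and 2.1e-05). Ppara itself had 41.4 CPM in cisplatin kidneys and 41.0 CPM in control kidneys. Cyp4a14 and Cyp4a10, which are themselves PPAR-alpha targets and are not on this list, lay with the higher genes.

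Enzymes that use arachidonic acid and leukotrienes outside Cyp4 were split. Of 15 tested, 8 were higher and 3 lower in cisplatin kidneys (log2 median 0.52), beside 24.5% higher and 22.8% lower over all genes tested. The leukotriene C4 synthase Ltc4s rose by 3.13, the 5-lipoxygenase Alox5 by 2.80 and the cytosolic phospholipase Pla2g4a by 0.99 on the log2 scale (edgeR adjusted p = 6.1e-07, 2.2e-04 and 1.2e-04). Alox5 passed the filter through its cisplatin libraries, having 4, 5 and 8 counts in the control libraries. With 10 counts required in every library, 7 of 14 tested genes of this list were higher and 3 lower. The epoxygenase Cyp2j5, the epoxide hydrolase Ephx2 and the thromboxane synthase Tbxas1 fell by 1.88, 1.71 and 0.87 (edgeR adjusted p = 1.9e-05, 1.0e-06 and 6.3e-04).

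The partners that P450 enzymes need were lower in part. Of 8 tested electron donors and heme synthesis genes, 6 were lower and none higher by edgeR, none being higher at an unadjusted p under 0.05 or with DESeq2 either, and the log2 median was -0.35. The all-gene shares were 22.8% lower and 24.5% higher. With library totals 1 was lower and 2 were higher, and the count of lower genes was 3 without control replicate 1 and 2 without control replicate 2. Cytochrome b5 (Cyb5a) fell by 1.37, Cyb5b by 0.37 and ferrochelatase (Fech), the last enzyme of heme synthesis, by 0.51 on the log2 scale (edgeR adjusted p = 2.1e-05, 0.011 and 3.7e-04).

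**Figure D4:**
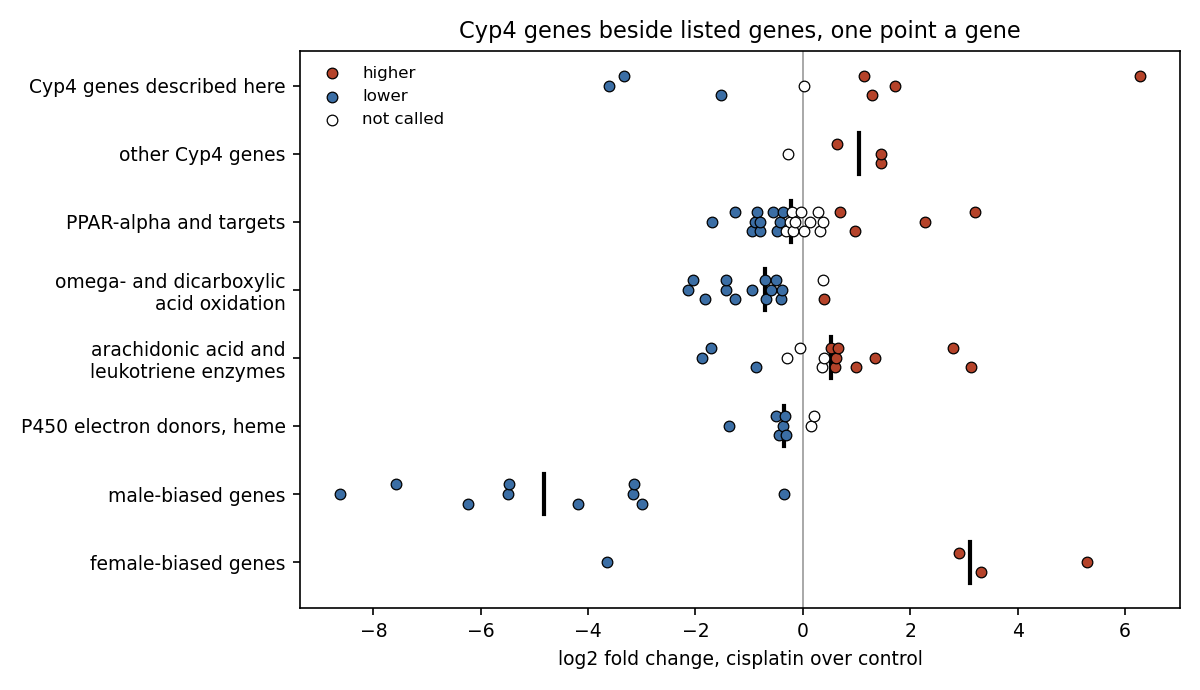
Log2 fold change of cisplatin over control for the 8 tested Cyp4 genes and each gene list, one point a gene; red points were called higher, blue lower and white neither, and the black line is the median of each list other than the Cyp4 genes described, with small vertical offsets to part the points. The medians run from -4.83 for the male-biased genes to 3.12 for the female-biased genes, and the Cyp4 genes spread over both sides, from -3.62 to 6.28.

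Since some Cyp4 genes differ between the sexes, listed sex-biased kidney genes were set beside them. All 10 male-biased genes were lower in these male cisplatin kidneys (log2 median -4.83), and their summed level was 533 to 923 CPM in cisplatin kidneys and 25848 to 27191 CPM in control kidneys. Among all genes tested, 22.8% were lower and 24.5% higher. The organic anion transporter Slco1a1 fell by 8.62, Slc22a30 by 5.48 and the oxysterol hydroxylase Cyp7b1 by 4.18 on the log2 scale (edgeR adjusted p = 3.6e-09, 4.2e-08 and 1.8e-08). Of 4 female-biased genes, Slc7a12, Abcc3 and the prolactin receptor Prlr rose by 5.30, 3.33 and 2.91 (edgeR adjusted p = 5.7e-07, 3.2e-06 and 1.1e-05) and Slc22a7 fell by 3.64 (edgeR adjusted p = 5.9e-08). The list calls held with each library left out, and with library totals 9 of the 10 male-biased genes were lower. The part of these changes in the Cyp4 values was not tested.

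The markers of kidney cell types moved as well, and their calls stand beside 24.5% of all genes tested called higher and 22.8% lower. All 7 tested markers of proximal tubule segments S1 and S2 were lower, with a summed level of 3268 to 3702 CPM in cisplatin kidneys and 7876 to 8848 CPM in control kidneys, and all 4 markers of segment S3 were lower, at 180 to 199 CPM in cisplatin kidneys and 2040 to 2167 CPM in control kidneys. With library totals 5 of the 7 S1 and S2 markers and all 4 S3 markers were lower. Leaving out 1 library gave 6 to 7 lower S1 and S2 markers and 4 lower S3 markers. Of the 4 S3 markers, 3 (Slc7a13, Cyp7b1 and Slc22a7) are also on the sex-biased lists. All 5 markers of injured tubule were higher, at 214 to 246 CPM in cisplatin kidneys and 9.40 to 11.6 CPM in control kidneys. Krt20 (2, 5 and 4 control counts) and Sox9 (5, 5 and 5) passed the filter through their cisplatin libraries. Beside the lower sums of the proximal tubule markers, Cyp4a12a and Cyp4b1 had lower levels in cisplatin kidneys, at log2 fold changes of -3.62 and -3.34, and Cyp4a14, Cyp4a10 and Cyp4a12b had higher levels, at 6.28, 1.72 and 1.29. The part of cell composition in the Cyp4 values was not tested.

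Of other cell types, 2 of 3 thick ascending limb markers were higher and 1 lower, all 3 distal convoluted tubule markers were lower, and 4 of 5 collecting duct markers were higher. Pvalb, a distal convoluted tubule marker with 2, 4 and 13 cisplatin counts, passed the filter through its control libraries. Endothelial markers were lower in 2 of 5 cases, and fibroblast and macrophage markers were higher in 4 of 5 cases each, beside 22.8% lower and 24.5% higher over all genes tested. Both tested neutrophil markers were higher, but Ly6g was at 0 counts in all libraries. Of 3 tested liver markers 2 were lower, with Cyp8b1 at 0 counts in the cisplatin libraries and 5 over the control libraries, and of 4 tested fat markers 1 was lower, with Lep at 0 counts in all. With DESeq2, 3 of 5 collecting duct, 5 of 5 fibroblast and 1 of 2 tested neutrophil markers were higher, and 3 of 5 endothelial markers lower. The other counts of this paragraph were the same with DESeq2, and none is given here under other scalings. The summed macrophage markers were 117 to 142 CPM in cisplatin kidneys and 60.5 to 69.6 CPM in control kidneys, beside the higher Cyp4f18, and their part in it was not tested.

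For the 5 Cyp4 genes that averaged log2 CPM 3 or more, the other genes above the same floor were ranked by how closely their profile over the 6 libraries followed, as the root mean square difference in log2 CPM after subtracting each gene's own control mean, over 8522 genes. Only the control mean was subtracted, so this distance holds the group difference that chose the Cyp4 genes. A near gene is thus in large part one of like fold change, and nothing further is read from it. Nearest to Cyp4b1 were the steroid dehydrogenase Hsd3b2 (0.124), the transporter Slc17a3 (0.126) and the glucuronosyltransferase Ugt2b38 (0.129). Their log2 fold changes were -3.35, -3.46 and -3.47, beside -3.34 for Cyp4b1. Cyp4a12a was further from its nearest genes, Hsd3b2 (0.810), complement component C8a (0.810) and Slc17a3 (0.836). Cyp4a14 was likewise far from its nearest genes, the injury molecule Havcr1 (0.717), Slc7a12 (0.796) and complement C3 (0.855). The log2 fold changes of these genes were 6.69, 5.30 and 5.82, beside 6.28 for Cyp4a14. Cyp4a10 lay nearest to Dcdc2a (0.210), Tmem119 (0.240) and Mr1 (0.252), and Cyp4a31 to Brd10 (0.104), Suz12 (0.107) and Tbc1d5 (0.107), genes whose own log2 fold changes were 0.08 or smaller in size.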

How the data were processed

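Kidney total RNA of 6 mice was made into stranded libraries, 1 per mouse, and sequenced as 150-base pairs. The authors trimmed reads with Cutadapt and aligned them with STAR to mm39, versions not stated for these RNA-seq libraries in the sources used here, and deposited read counts per gene. The count on the transcript's strand was used, and the counts ignoring strand only as an alternative. The titles spell cisplatin as Ciaplatin. Counts were tested with edgeR 4.0.16 in R 4.3.3 (quasi-likelihood F test, TMM, filterByExpr with a minimum count of 10, Benjamini-Hochberg over 15662 genes, threshold 0.05), a fit checked on simulated data. The simulation changed few genes, evenly in both directions, so it did not check the scaling for differences as wide as those found here. The alternatives were DESeq2 1.42.0 (the authors' tool), other scalings, other filters, a replicate block and leaving out each library. Log2 CPM used a prior count of 2.

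The 9 genes, the 7 gene lists and the 12 marker lists (144 genes, 143 measured; Cyp2c44 was not matched) were chosen with earlier results of these data known. The text names all 9 genes, the other Cyp4 genes, up to 3 genes per direction of smallest adjusted p from the lists of pathways and sex-biased genes, and the 3 nearest profiles, although some genes so chosen are not reported here; markers, Ppara and cluster neighbours beyond these were named after their values were seen. Names and coordinates came from GENCODE vM39 on GRCm39, which matched 56017 of 56691 gene IDs. The annotation release used for counting is not given in the sources used here. Whether littermates or litters were spread over the groups is not given either, so p-values measure the spread between these mice only. Intervals cover counting error only.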

Additional observations from a re-analysis of the deposited data

Results flagged for a closer look

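Read pairs on the strand opposite to Cyp4a14 lay outside every comparison above. They numbered 3, 7 and 2 in the cisplatin libraries, 12 in all, and 0 in each control library. Beside 35284 sense pairs in cisplatin libraries this was 0.0340% of the gene's pairs (95% Wilson interval 0.0195 to 0.0594%). In control libraries, 0 beside 364 sense pairs allows a share of up to 0.824%, so the shares of the groups could not be told apart at this depth. An annotated noncoding RNA gene on the plus strand, Gm52676, spans the whole of Cyp4a14 and was not among the genes counted. Whether the opposite-strand pairs come from it was not tested.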

How the results depend on the processing

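Since the contrast chose the Cyp4 genes, nothing is read from their calls under the alternatives. With 10 counts required in every library Cyp4f14 was not tested. Ignoring the strand, Cyp4a32 was tested and called lower, on control pairs that lay mostly on the strand of Cyp4b1. Cyp4a31 had -0.0125 with DESeq2's size factors, -0.0127 with DESeq2's own test, 0.45 and a call as higher with library totals, and -0.091 to 0.16 when 1 library was left out. Library totals moved all genes to 8508 higher and 1375 lower, PPAR-alpha targets to 10 higher and 7 lower, omega-oxidation genes to 2 higher and 8 lower, and P450 partners to 2 higher and 1 lower. They also gave 5 of 7 lower S1 and S2 markers and 9 of 10 lower male-biased genes. Upper-quartile scaling gave 1 higher and 3 lower P450 partners, and leaving out 1 library 0 to 1 higher (1 without cisplatin replicate 1) and 2 to 6 lower (2 without control replicate 2, 3 without control replicate 1). A second omega-oxidation gene was called higher (2 in all) with upper-quartile scaling, without the filter, with 10 counts in every library and with the replicate block, and 1 to 2 when 1 library was left out (2 without cisplatin replicate 1 or control replicate 2). Of the other Cyp4 genes 1 was lower with DESeq2's size factors and with the block, and 0 to 1 when 1 library was left out (1 without cisplatin replicate 3). Per kilobase, the cisplatin shares were 40.1% for Cyp4a10, 51.1% for Cyp4a14 and 0.0334% for Cyp4a32 (0.0295% in controls); ignoring the strand, Cyp4a32 had 0.0539% in cisplatin and 0.674% in control libraries.

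Same-numbered libraries share only a number in the labels. Their deviations correlated at 0.133, 0.142 and 0.0997, against -0.126 to -0.0259 for other pairings, so each library correlated best with its own number. With the replicate block 4087 genes were higher and 3796 lower. Depth limits Cyp4a32 and Cyp4f14, and 3 mice a group limit all SDs.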

Other observations

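Control replicate 2 stood apart in the genes described above by its low Cyp4a12a and its high Cyp4a14, Cyp4a10 and Cyp4a31. A count chosen after these values were seen showed that it was also the highest of the 3 control libraries for 23 of 26 tested genes on the PPAR-alpha list and for 11 of 15 on the omega-oxidation list, lists that share some of their genes, against 35.4% of all genes tested. In control replicate 2, against control replicates 1 and 3, Angptl4 had 51.4 CPM against 27.3 and 23.3 CPM, and Pdk4 17.9 CPM against 13.8 and 10.1 CPM. It was the highest control for 2 of 10 male-biased genes. Among cisplatin kidneys, replicate 3 was highest for 18 of 26 genes on the PPAR-alpha list, 12 of 15 on the omega-oxidation list and 9 of 10 male-biased genes, against 37.0% of all genes tested. Of the female-biased genes, 3 of 4 were also highest in cisplatin replicate 3. These libraries are single mice, and no test was made.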
